A study of Mus musculus with 48 samples.

Results

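The 33 genes described here encode the enzymes, transporters, regulators and receptors with which the liver makes, stores and breaks down glucose, together with the receptors and adaptors that read insulin and glucagon. They were chosen by gene symbol from the 49315 genes of the deposited table and were placed in 5 role groups: gluconeogenesis, glycogen, glucose and fructose entry, insulin and glucagon signalling, and glycolysis. All 33 passed the filter on low values (at least 1 TPM in at least 6 of 48 libraries), which 15820 genes passed. TPM, a length-corrected transcript share, is a level per transcript length in which every library sums to the same total.

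Polyadenylated RNA was sequenced from livers of C57BL/6J mice of both sexes. The mice ate food low in fat (LFD) or high in fat (HFD), and on each diet they got either vehicle or, once a week, a mixture of 3 dioxin-like chemicals. These were the dioxin TCDD at 10 ng/kg, the chlorinated furan PeCDF at 80 ng/kg and the biphenyl PCB126 at 140 ng/kg. Livers were taken after 12 weeks, and the 8 combinations hold 6 libraries each. The groups are LFD vehicle males, LFD mixture males, HFD vehicle males, HFD mixture males, and the corresponding 4 groups of females, all of the same strain with no engineered allele named. The sources used here do not give the age of the mice, the route of dosing, the feeding state at collection or the composition of the diets. The library names of the LFD and the HFD are numbered in separate runs, so diet and any difference in cohort cannot be told apart. The labels number the 6 libraries of a group as replicates without saying that each is a separate animal, so each p-value reflects spread among libraries, which may be technical.

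Hepatocytes release glucose between meals, from glycogen and by gluconeogenesis, and take it up and store it after a meal. Glucagon acts through a G protein-coupled receptor and cyclic AMP to favour glucose output, whereas insulin acts through its receptor, the IRS adaptors and the kinase AKT, which keeps the transcription factor FOXO1 out of the nucleus. The dioxin-like chemicals are ligands of the aryl hydrocarbon receptor, a transcription factor whose activation has been linked to lower expression of gluconeogenic genes in rodent liver.

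In each library 13180 to 14713 genes reached 1 TPM, and since only TPM values were deposited the depth behind each value is unknown. Hepatocyte markers were abundant in all 48 libraries: 8 such genes summed to between 61095 and 161334 TPM. Their summed level had a median of 120212 TPM in LFD vehicle males and 80727 TPM in HFD vehicle males, and of 143954 and 93623 TPM in the corresponding females. Skeletal muscle transcripts stood out in 3 libraries, LFD vehicle females replicate 3, LFD mixture females replicate 3 and HFD mixture males replicate 6, where 15 muscle genes summed to between 1808 and 21854 TPM, against a median of 27.2 and a highest value of 715 TPM in the other 45. LFD mixture females replicate 3 also held adrenal cortex transcripts: 6 such genes summed to 1836 TPM there, against a group median of 11.3 TPM. In bulk tissue, fewer cells of a type and less RNA per cell cannot be told apart.

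As levels per length, the members covered a wide range. Pck1, phosphoenolpyruvate carboxykinase, the first committed enzyme of gluconeogenesis, was the most abundant, with a group mean of 3856 ± 468 TPM (SD, n = 6) in LFD vehicle females. Fbp1, fructose bisphosphatase, followed at 1514 ± 122 TPM (SD, n = 6) in LFD vehicle males. At the other end stood Hk2, the hexokinase typical of muscle and fat, at 1.55 ± 0.991 TPM (SD, n = 6) in LFD vehicle males, and Irs1, an insulin receptor adaptor, at 3.23 ± 1.23 TPM (SD, n = 6) there. The members also differed in how much libraries of 1 group varied. The pooled within-group SD of log2(TPM + 1) was 0.99 for Ppp1r3g, a subunit that targets protein phosphatase 1 to glycogen, and 98.3% of the genes tested varied less. It was 0.84 for Hk2, 0.70 for the related subunit Ppp1r3c and 0.66 for the adaptor Irs2. Pgk1, phosphoglycerate kinase, had the smallest SD of the members, 0.099, and 2.03% of the genes tested varied less. The median over all genes tested was 0.21. Of the 33 members, 20 overlap another annotated gene, among them Pcx, Ppp1r3g, Ppp1r3b, Hk2, Foxo1, Gcgr, Gapdh, Tpi1 and Pkm, and the sources used here do not say whether the counting used strand.

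Promoter sequences, 250 bases before to 50 after a transcript's start, were found in RefSeq (GRCm38.p6) for 30 of the 33 members, all but Gys2, Ppp1r3b and Insr, with 44 promoters in total. Both strands were searched for 4 motifs. The core recognised by the aryl hydrocarbon receptor is GCGTG. The core of the cyclic AMP response element, through which glucagon signals act, is TGACG. The FOXO-type site is GTAAACA. The E-box is CACGTG. Overlap with other motifs was allowed. GCGTG was present in 17 of the 44 member promoters (38.6%) and in 32.4% of all 32851 promoters, TGACG in 13 (29.5%) against 20.8%, CACGTG in 7 (15.9%) against 7.15%, and GTAAACA in 0 against 3.65%. The 3 promoters printed here belong to members that the results below turn on, a gluconeogenic, a glycogen and a glycolytic gene, and capitals mark the motifs. Pck1 lies at chr2:173152823-173153122 on the plus strand, Ppp1r3g at chr13:35967656-35967955 on the plus strand, and the first of 2 Ldha promoters at chr7:46845554-46845853 on the plus strand.
Pck1: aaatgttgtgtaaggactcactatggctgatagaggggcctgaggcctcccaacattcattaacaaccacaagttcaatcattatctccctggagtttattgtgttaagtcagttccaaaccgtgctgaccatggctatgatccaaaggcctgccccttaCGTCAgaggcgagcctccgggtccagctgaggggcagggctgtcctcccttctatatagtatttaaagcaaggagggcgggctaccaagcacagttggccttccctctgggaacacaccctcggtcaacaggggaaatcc
Ppp1r3g: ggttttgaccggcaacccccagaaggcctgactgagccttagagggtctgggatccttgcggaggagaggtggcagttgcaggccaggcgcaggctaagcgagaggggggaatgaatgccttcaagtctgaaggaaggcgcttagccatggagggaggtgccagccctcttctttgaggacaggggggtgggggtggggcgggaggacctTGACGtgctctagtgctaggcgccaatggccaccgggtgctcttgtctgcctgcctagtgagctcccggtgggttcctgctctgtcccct
Ldha: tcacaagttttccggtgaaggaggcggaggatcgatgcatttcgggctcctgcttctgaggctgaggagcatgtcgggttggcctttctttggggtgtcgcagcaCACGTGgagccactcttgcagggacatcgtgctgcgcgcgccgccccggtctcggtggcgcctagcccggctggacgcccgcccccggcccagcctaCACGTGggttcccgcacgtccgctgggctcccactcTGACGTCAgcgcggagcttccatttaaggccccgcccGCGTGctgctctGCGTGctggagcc
In Pck1 the TGACG motif is on the minus strand, so that it reads CGTCA here, and starts 90 bases upstream of the transcript start. In Ppp1r3g it is on the plus strand, 40 bases upstream. The Ldha promoter holds CACGTG at 145 and 48 bases upstream, TGACG on both strands in overlapping copies that start 12 and 9 bases upstream, and GCGTG at 25 and 37 bases downstream. These matches describe letters and were not tested for binding.

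Each comparison was a contrast of group means in 1 limma model of log2(TPM + 1) over all 8 groups, and a member is called higher or lower where its adjusted p (limma, Benjamini-Hochberg over 15820 genes) was under 0.05. Many members passed with diet, and 0 passed with the mixture. On the HFD, 9 of 33 members were higher and 2 lower in vehicle males, when 31.4% of all genes tested were called, 25.6% higher and 5.82% lower. In vehicle females 5 were higher and 10 lower, with 28% of all genes called, 14.4% higher and 13.5% lower. In males given the mixture 12 were higher and 4 lower, with 38.6% of all genes called, 31.7% higher and 6.92% lower. In females given the mixture 3 were higher and 4 lower, with 19.2% of all genes called, 11.5% higher and 7.74% lower. The share of members called was 33.3%, 45.5%, 48.5% and 21.2% in the same order. The median change of the members was 0.085, -0.15, 0.13 and 0.002 on the log2 scale, beside 0.11, -0.008, 0.15 and -0.001 over all genes.

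**Figure D1:**
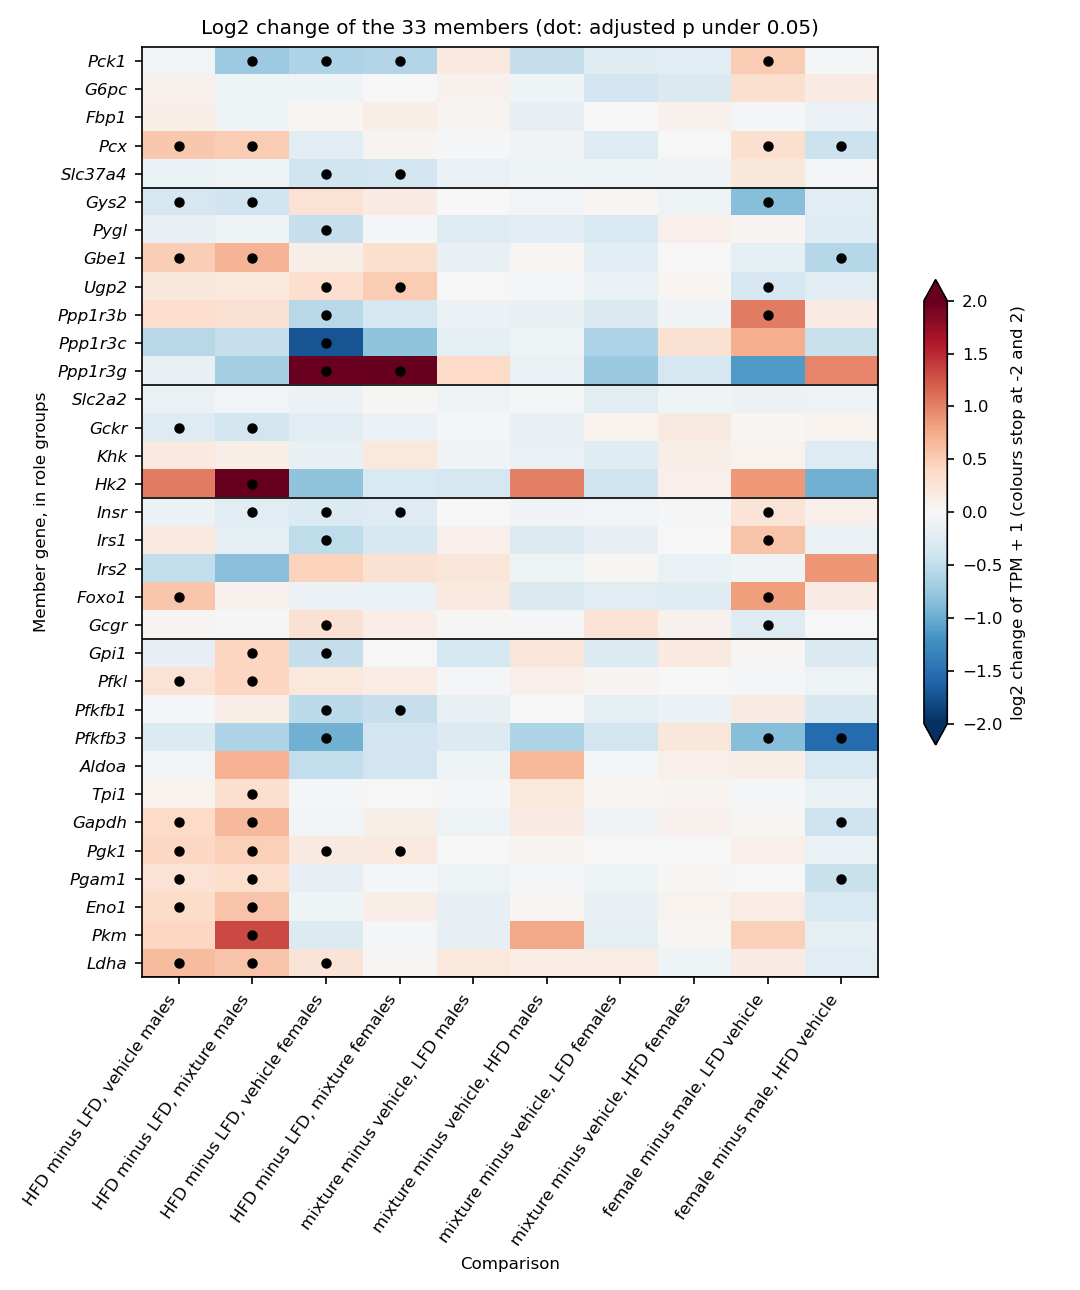
Log2 change of TPM + 1 for each of the 33 members (rows, in role groups) in 10 comparisons (columns), with dots where the adjusted p was under 0.05. The dots sit in the diet and sex columns, and the 4 mixture columns hold none.

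In the male diet comparisons the whole distribution was shifted. Trimmed-mean scaling of the libraries moved the median change of all genes from 0.11 to -0.003 in vehicle males and from 0.15 to -0.007 in males given the mixture, and the share of calls that were higher from 81.5% to 53.1% and from 82.1% to 49.1%. With that scaling the members divided into 5 higher and 4 lower in vehicle males and 9 higher and 10 lower in males given the mixture. Of all genes, 13.1% were then called higher and 11.6% lower in vehicle males, and 15.6% and 16.2% in males given the mixture. In males given the mixture scaling added lower calls for Fbp1 (-0.29), Gcgr (-0.22), Irs2 (-1.02), Pfkfb3 (-0.79), Pygl (-0.30) and Slc2a2 (-0.26). The counts in females stayed at 5 and 10, and at 3 and 4. Values after scaling are given beside many of the male results.

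Among the gluconeogenic genes, Pck1 was lower on the HFD in 3 of the 4 diet comparisons, and Pcx, pyruvate carboxylase, which supplies the oxaloacetate that Pck1 uses, was called higher in both male comparisons and in neither female one. Pck1 ranged from 2821 to 3971 TPM (median 3022) in LFD mixture females and from 1754 to 2567 TPM (median 2272) in HFD mixture females, groups that did not overlap, and its log2 change was -0.58 (SE 0.18, adjusted p = 0.0158). Libraries overlapped between diets in the other pairs. In vehicle females it lay at 3293 to 4472 TPM (median 3888) on the LFD and 1825 to 3309 TPM (median 2552) on the HFD, a change of -0.61 (SE 0.18, adjusted p = 0.00747). The HFD mixture males held the lowest Pck1, 1501 to 2824 TPM (median 1745), against 1855 to 3927 TPM (median 3629) in LFD mixture males, a change of -0.72 (SE 0.18, adjusted p = 0.00109), or -0.92 after scaling. In vehicle males the change was -0.056 (SE 0.18, adjusted p = 0.858), which did not pass.

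Pcx ranged from 330.0 to 419 TPM (median 394) in LFD vehicle males and from 446 to 625 TPM (median 574) in HFD vehicle males, with no overlap, a change of 0.54 (SE 0.11, adjusted p = 0.000212) that was 0.39 after scaling. In males given the mixture it lay at 352 to 433 TPM (median 364) on the LFD and 395 to 663 TPM (median 585) on the HFD, with overlap, a change of 0.50 (SE 0.11, adjusted p = 0.000456), or 0.30 after scaling. Pcx is also where the sexes parted: its change in vehicle females was -0.20 (SE 0.11, adjusted p = 0.185), and the difference from males was -0.75 (SE 0.16, adjusted p = 0.000888), or -0.59 after scaling. Slc37a4, which carries glucose 6-phosphate into the endoplasmic reticulum for its last cleavage, was lower on the HFD in females. It lay at 168 to 311 TPM (median 221) on the LFD and 131 to 199 TPM (median 178) on the HFD with vehicle, a change of -0.40 (SE 0.12, adjusted p = 0.0135), and changed by -0.38 (SE 0.12, adjusted p = 0.0264) with the mixture. The libraries overlapped in both pairs. G6pc, the catalytic subunit of the phosphatase that releases free glucose, and Fbp1 were called in no comparison as deposited. G6pc group means lay between 644 and 823 TPM, and those of Fbp1 between 1474 and 1657 TPM.

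**Figure D2:**
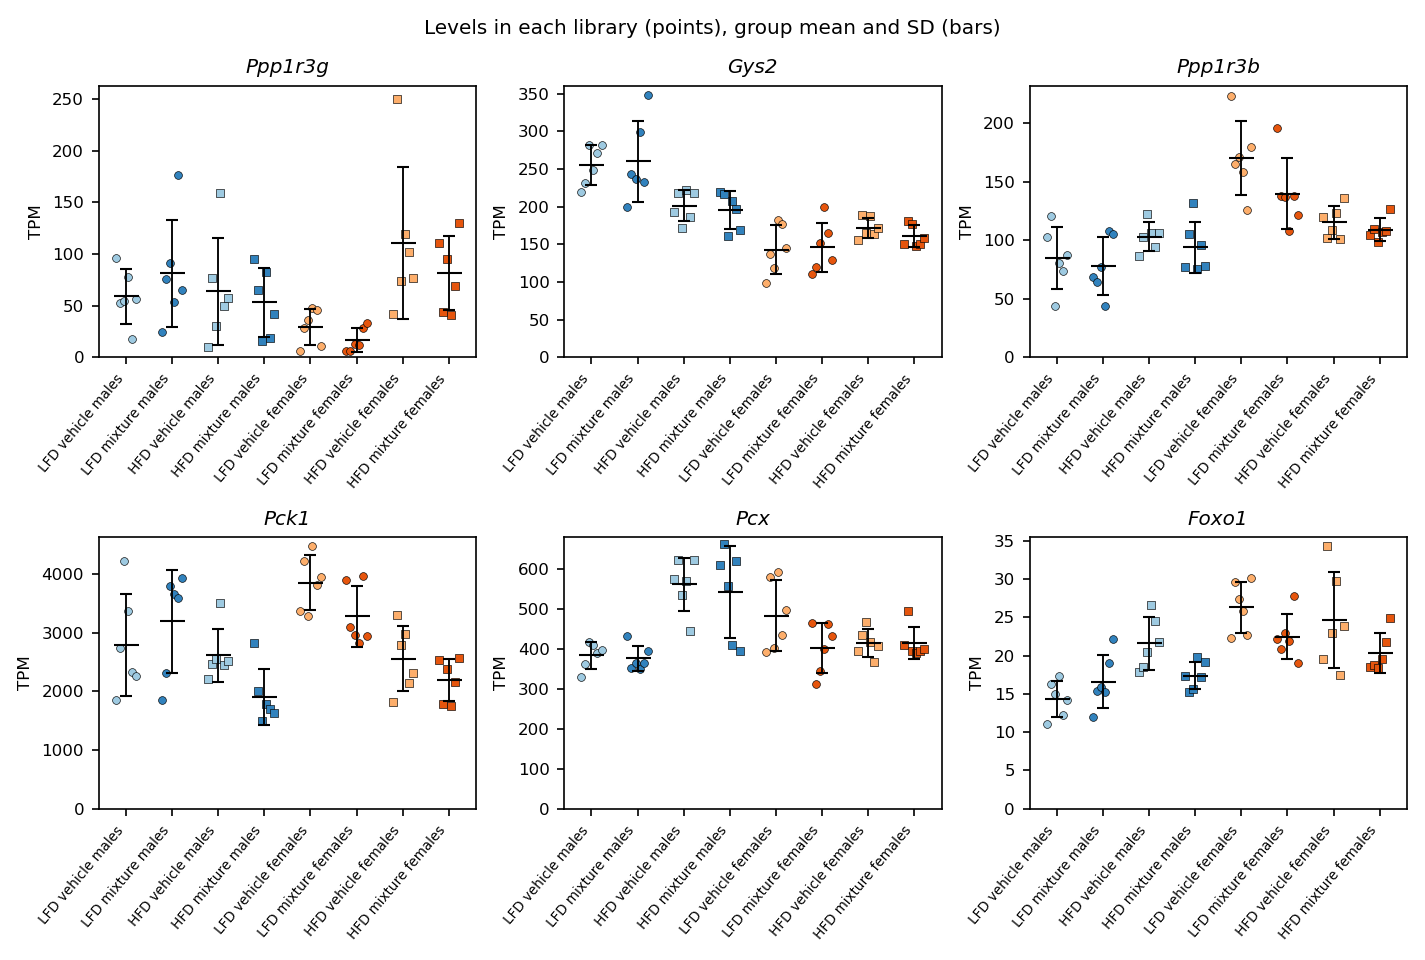
TPM of 6 members in each of 48 libraries (points), by group, with group mean and SD (bars); circles are LFD, squares HFD, blue males, orange females. Ppp1r3g in HFD females lies mostly above LFD females, with some overlap, and Gys2 is highest in LFD males. Ppp1r3b and Foxo1 are higher in LFD vehicle females than in LFD vehicle males, and Pcx is raised in HFD males with either treatment.

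Among the glycogen genes the widest diet changes were in females and went in opposite directions within 1 family. The family consists of targeting subunits that bring protein phosphatase 1 to glycogen, where it activates glycogen synthase. Ppp1r3g was higher on the HFD in females. It ranged from 5.88 to 47.8 TPM (median 32.3) in LFD vehicle females and from 41.6 to 250.2 TPM (median 89.3) in HFD vehicle females, a change of 1.98 (SE 0.55, adjusted p = 0.00542). Only the lowest HFD library fell within the LFD range. With the mixture it lay at 6.25 to 33.4 TPM (median 12.5) on the LFD and 41.1 to 129.8 TPM (median 82.04) on the HFD, with no overlap, a change of 2.37 (SE 0.55, adjusted p = 0.00146). In vehicle males the ranges of the diets overlapped, 17.2 to 96.1 TPM (median 55.3) on the LFD and 10.2 to 159 TPM (median 53.3) on the HFD, and the change was -0.15 (SE 0.55, adjusted p = 0.883). In mixture males the change was negative and not called. The difference between the sexes with the mixture, 3.03, therefore exceeded the change in females, 2.37.

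Ppp1r3c, another targeting subunit, moved the other way in vehicle females. It lay at 29.7 to 109 TPM (median 67.9) on the LFD and 6.48 to 49.97 TPM (median 14.7) on the HFD, a change of -1.72 (SE 0.39, adjusted p = 0.000721). Its change in the other 3 diet comparisons was negative and did not pass, at -0.55 in vehicle males, -0.46 in mixture males and -0.80 in mixture females. Ppp1r3b, the main targeting subunit of liver, fell in vehicle females. It lay at 126 to 223 TPM (median 168) on the LFD and 101 to 136 TPM (median 114) on the HFD, a change of -0.55 (SE 0.18, adjusted p = 0.0173). In vehicle males it was 0.33 with no call. The phosphorylase Pygl, which removes glucose from glycogen, was lower on the HFD in vehicle females, 248 to 433 TPM (median 328) against 398 to 487 TPM (median 453), a change of -0.46 (SE 0.13, adjusted p = 0.00615). The ranges of all 3 genes overlapped between the diets.

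Of the enzymes that build glycogen, Gys2 and Gbe1 were called with diet in males and Ugp2 in females. Among these, as deposited, the difference in diet change between the sexes passed for Gys2 alone. Gys2, the liver glycogen synthase, was lower on the HFD in males: 171 to 222 TPM (median 206) against 219 to 282 TPM (median 259.7) with vehicle, a change of -0.34 (SE 0.13, adjusted p = 0.0347), and 161 to 219.6 TPM (median 203) against 199 to 348 TPM (median 240.0) with the mixture, a change of -0.40 (SE 0.13, adjusted p = 0.0112). Scaling gave -0.49 and -0.59. In females the Gys2 values were 0.29 and 0.16, with no call. Gbe1, the branching enzyme, was higher on the HFD in males, 91.7 to 129 TPM (median 114) against 66.7 to 104 TPM (median 75.2) with vehicle, a change of 0.49 (SE 0.13, adjusted p = 0.00387), and 0.68 with the mixture. After scaling these were 0.34 and 0.48, both still called. Ugp2, which makes the UDP-glucose used for glycogen, was higher on the HFD in females, 265 to 429.6 TPM (median 315) against 214 to 339 TPM (median 238) with vehicle, a change of 0.34 (SE 0.12, adjusted p = 0.0332), and 0.51 (SE 0.12, adjusted p = 0.00211) with the mixture. The diet change in females minus that in males, with vehicle, was -0.38 (SE 0.19, adjusted p = 0.172) for Gbe1 and 0.10 (SE 0.17, adjusted p = 0.744) for Ugp2. With the mixture the Ugp2 difference was 0.30 (limma, adjusted p = 0.231) as deposited. It passed after scaling, at 0.49 (limma, adjusted p = 0.028). Libraries overlapped between diets for Gys2, Gbe1 and Ugp2.

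Genes of sugar entry showed small diet changes apart from Hk2. Gckr, the protein that holds glucokinase in the nucleus, was lower on the HFD in males, at 147 to 180.4 TPM (median 160.1) against 167 to 218 TPM (median 190.0) with vehicle, a change of -0.25 (SE 0.097, adjusted p = 0.0413), and changed by -0.37 (SE 0.097, adjusted p = 0.00235) with the mixture. After scaling these were -0.40 and -0.56. The libraries overlapped. Slc2a2, the GLUT2 transporter, and Khk, which phosphorylates fructose, were called in no comparison as deposited. Their group means lay between 157 and 199 TPM and between 761 and 957 TPM. Scaling brought Slc2a2 to a call in vehicle males (-0.28, against -0.13 as deposited) and in mixture males (-0.26, against -0.059).

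Hk2 was called higher on the HFD in males given the mixture. There it ranged from 0.753 to 1.11 TPM (median 0.894) on the LFD and from 4.62 to 65.9 TPM (median 6.33) on the HFD, with no overlap, a change of 2.38 (SE 0.47, adjusted p = 7.59e-05). The highest of those libraries, replicate 6 at 65.9 TPM, is the one with the most muscle transcripts. Leaving out the 3 muscle-rich libraries gave 1.83, still called, and scaling gave 2.25. With vehicle Hk2 lay at 0.930 to 3.41 TPM (median 1.02) on the LFD and 2.66 to 5.13 TPM (median 4.26) on the HFD, and the change of 1.04 (SE 0.47, adjusted p = 0.0891) did not pass in the full model. It passed at the same size, 1.04, once the 3 libraries were left out, and none of these belongs to either group. Here the highest LFD library, at 3.41 TPM, is replicate 4, whose muscle transcripts summed to 715 TPM. In females no diet change of Hk2 was called. Pkm, the pyruvate kinase of tissues other than hepatocytes, and Aldoa, the aldolase typical of muscle, had their highest values in the same 3 libraries: 177, 78.8 and 89.6 TPM for Pkm and 625, 315 and 218 TPM for Aldoa.

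**Figure D3:**
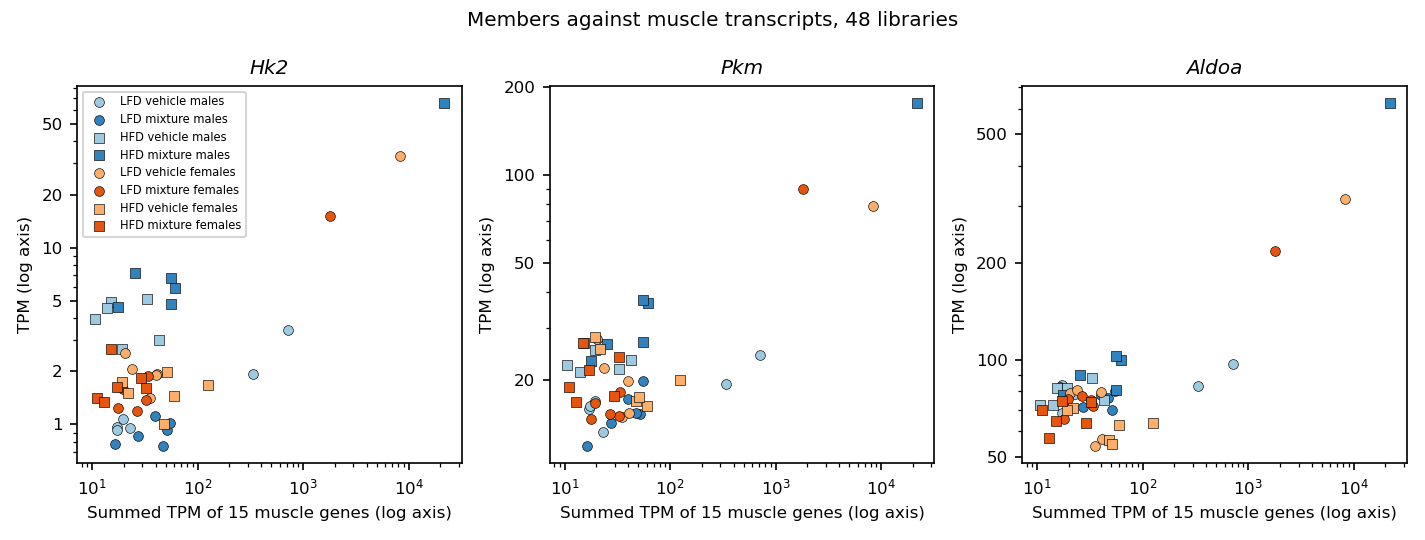
TPM of Hk2, Pkm and Aldoa (vertical, log axis) against the summed TPM of 15 skeletal muscle genes (horizontal, log axis) in 48 libraries, coloured by group. The 3 libraries with 1808 TPM of muscle transcripts or more hold the highest values of each gene, and among the rest Hk2 in most HFD males lies above that in LFD males.

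Of the 12 glycolytic genes, 6 were called higher on the HFD and 0 lower in vehicle males, with a median change of 0.29, when 25.6% of all genes were called higher. In males given the mixture 9 were higher and 0 lower, with a median of 0.45, when 31.7% of all genes were higher. In vehicle females 2 were higher and 3 lower, with a median of -0.12, when 14.4% of all genes were higher and 13.5% lower. In females given the mixture 1 was higher and 1 lower, when 11.5% of all genes were higher and 7.74% lower. After scaling the male counts were 2 higher and 0 lower, and 6 higher and 1 lower, with medians of 0.14 and 0.26, when 13.1% and 15.6% of all genes were called higher. Stellate cell markers were higher in the same comparisons: 5 such genes summed to 124 to 159 TPM in LFD vehicle males and 224 to 288 TPM in HFD vehicle males, with 4 of 5 called higher. With the mixture the sums were 106 to 151 TPM on the LFD and 262 to 694 TPM on the HFD, with 4 of 5 called higher. The 694 TPM is from replicate 6, the library with the most muscle transcripts, and the next highest sum was 527 TPM. Macrophage markers were higher for 2 of 5 genes with vehicle and 3 of 5 with the mixture, and summed to 105 to 249 TPM and 169.9 to 265 TPM with vehicle and to 75.5 to 166 TPM and 147 to 251 TPM with the mixture. In males given the mixture the cholangiocyte (3 of 4), blood (3 of 5) and neutrophil (2 of 2) markers also held higher calls. The neutrophil list has 4 genes, of which only those 2 passed the filter, and its level was low. The 4 genes summed to 0.446 to 4.41 TPM in LFD mixture males, with 1 to 3 of them at 0. In HFD mixture males they summed to 2.45 to 13.6 TPM, with 1 to 2 at 0. None of the stellate, macrophage, cholangiocyte or blood markers was at 0 in any of these libraries. Hepatocyte markers went the other way, with 6 of 8 called lower and 0 higher in vehicle males and again in males given the mixture. Endothelial markers held 2 higher calls of 5 with vehicle, and 2 higher and 1 lower with the mixture. The part of these cell types in the glycolytic changes was not tested. Several of these genes have processed pseudogenes or near copies (Gapdh, Ldha, Pgam1, Pgk1, Aldoa and Eno1), so the share of reads that the authors' counting gave to each is uncertain.

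Ldha, lactate dehydrogenase A, ranged from 368 to 594 TPM (median 456) in LFD vehicle males and from 690.3 to 773 TPM (median 712) in HFD vehicle males, with no overlap. Its change was 0.63 (SE 0.090, adjusted p = 4.74e-07), or 0.48 after scaling. With the mixture it lay at 488 to 595 TPM (median 544) on the LFD and 700.0 to 902 TPM (median 819.8) on the HFD, also apart, a change of 0.57 (SE 0.090, adjusted p = 2.55e-06), or 0.37 after scaling. In vehicle females the change was 0.25 (SE 0.090, adjusted p = 0.0293), with overlapping libraries. Pgk1, which makes ATP from bisphosphoglycerate, was the one glycolytic gene called higher on the HFD in all 4 diet comparisons. It lay at 284 to 323 TPM (median 301) on the LFD and 382 to 426 TPM (median 401) on the HFD in vehicle males, a change of 0.41 (SE 0.059, adjusted p = 6.08e-07), or 0.26 after scaling. Neither these groups nor those of mixture males overlapped, where it changed by 0.47 (SE 0.059, adjusted p = 2.74e-08), or 0.27 after scaling. The changes in females were 0.17 (SE 0.059, adjusted p = 0.0244) with vehicle and 0.20 (SE 0.059, adjusted p = 0.0137) with the mixture, with overlap.

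Gapdh, glyceraldehyde phosphate dehydrogenase, often used as a reference gene, was itself higher in HFD males. It lay at 606 to 851 TPM (median 655) on the LFD and 819 to 977 TPM (median 878) on the HFD with vehicle, where 1 LFD library reached into the HFD range, a change of 0.38 (SE 0.091, adjusted p = 0.00111). With the mixture it lay at 574 to 705 TPM (median 633) on the LFD and 862 to 1133 TPM (median 1016) on the HFD, apart, a change of 0.65 (SE 0.091, adjusted p = 2.89e-07), or 0.45 after scaling. Eno1, an enolase, did not overlap between the diets in vehicle males, 230.3 to 317 TPM (median 261) against 325 to 366 TPM (median 341), and changed by 0.37 (SE 0.11, adjusted p = 0.0108). Pfkl, the liver phosphofructokinase, lay at 24.4 to 27.3 TPM (median 26.8) on the LFD and 25.8 to 36.2 TPM (median 33.5) on the HFD, a change of 0.29 (SE 0.099, adjusted p = 0.0217). Pgam1, phosphoglycerate mutase, lay at 81.6 to 106 TPM (median 92.96) and 101 to 128 TPM (median 114), a change of 0.29 (SE 0.086, adjusted p = 0.00832). Both overlapped. Scaling ended these 4 calls in vehicle males, with changes of 0.23 for Gapdh, 0.22 for Eno1, 0.14 for Pfkl and 0.14 for Pgam1.

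In males given the mixture Eno1, Pfkl and Pgam1 changed by 0.56, 0.44 and 0.36, where scaling gave 0.37 for Eno1 and 0.24 for Pfkl, and 3 more genes were called higher. Tpi1, triose phosphate isomerase, lay at 266 to 323 TPM (median 287) on the LFD and 329 to 405 TPM (median 361) on the HFD, with no overlap, a change of 0.32 (SE 0.062, adjusted p = 5.31e-05). Gpi1, glucose phosphate isomerase, lay at 77.2 to 125 TPM (median 93.01) on the LFD and 92.5 to 164 TPM (median 138) on the HFD, with overlap, a change of 0.44 (SE 0.16, adjusted p = 0.0318). Scaling ended the calls of Tpi1 (0.13), Gpi1 (0.24) and Pgam1 (0.16). Pkm lay at 11.8 to 19.9 TPM (median 15.4) on the LFD and 23.3 to 177 TPM (median 31.8) on the HFD, apart, a change of 1.32 (SE 0.35, adjusted p = 0.00242) that was 0.90 without the 3 muscle-rich libraries and 1.13 after scaling, both still called. Aldoa gave 0.70 (SE 0.32, adjusted p = 0.0823) in the full model, with no call, and 0.23 without those libraries, where it was called.

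**Figure D4:**
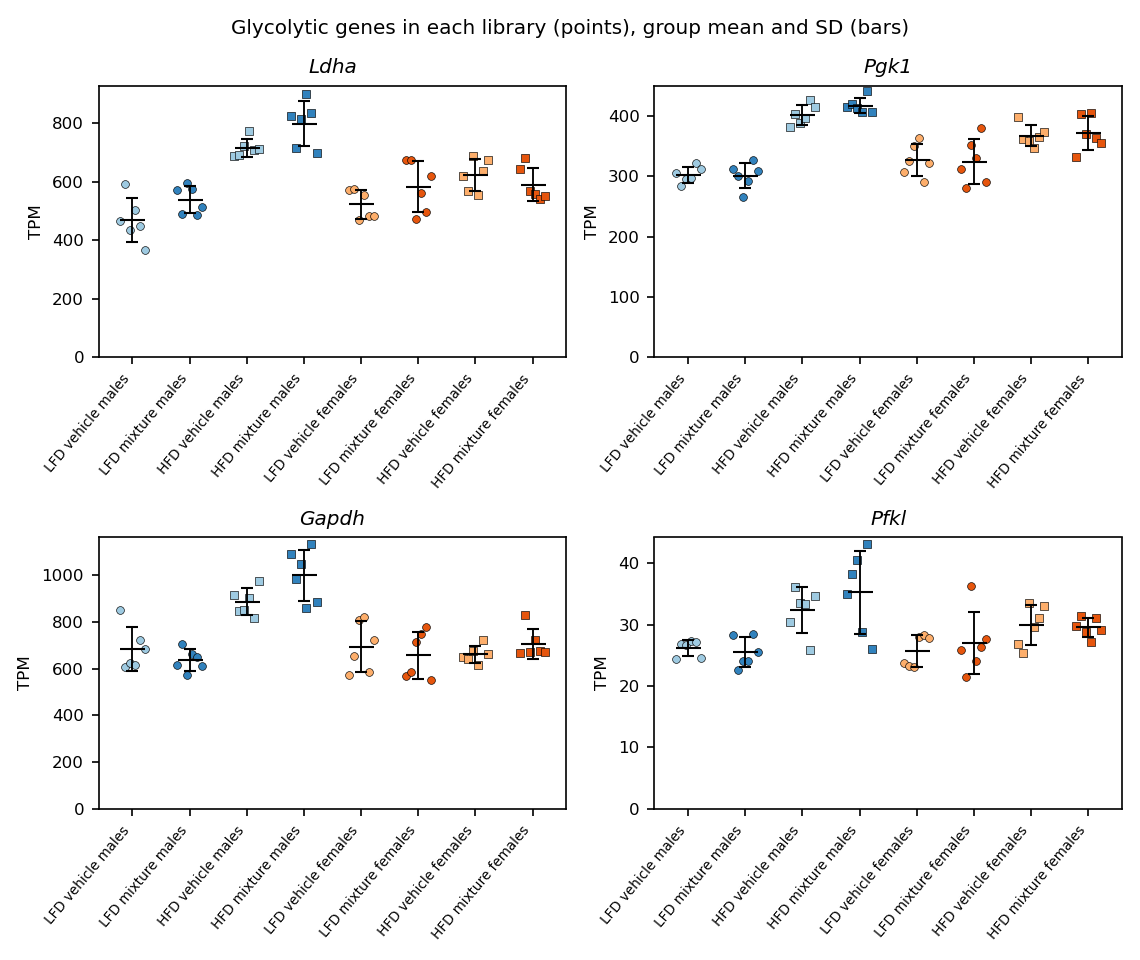
TPM of Ldha, Pgk1, Gapdh and Pfkl in each of 48 libraries (points), by group, with group mean and SD (bars); circles are LFD, squares HFD, blue males, orange females. For Ldha and Pgk1 the HFD males lie above the LFD males without overlap, and the female groups overlap.

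The bifunctional enzymes set fructose 2,6-bisphosphate, the signal that switches between glycolysis and gluconeogenesis. Pfkfb1, the liver form, was lower on the HFD in both female comparisons. It lay at 24.9 to 46.1 TPM (median 33.8) on the LFD and 17.8 to 32.99 TPM (median 22.6) on the HFD with vehicle, a change of -0.52 (SE 0.16, adjusted p = 0.0111), and changed by -0.46 (SE 0.16, adjusted p = 0.0339) with the mixture. The libraries overlapped in both pairs. Pfkfb3, an inducible form, was lower in vehicle females, where it lay at 6.86 to 13.5 TPM (median 7.32) on the LFD and 2.80 to 4.48 TPM (median 3.82) on the HFD, with no overlap, a change of -0.97 (SE 0.28, adjusted p = 0.00725). With the mixture its value in females was -0.38 (SE 0.28, adjusted p = 0.373), with no call. Gpi1 was lower as well in vehicle females, at 77.7 to 104 TPM (median 88.3) against 92.96 to 161 TPM (median 122), a change of -0.48 (SE 0.16, adjusted p = 0.0255), the opposite direction to that in mixture males.

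**Figure D5:**
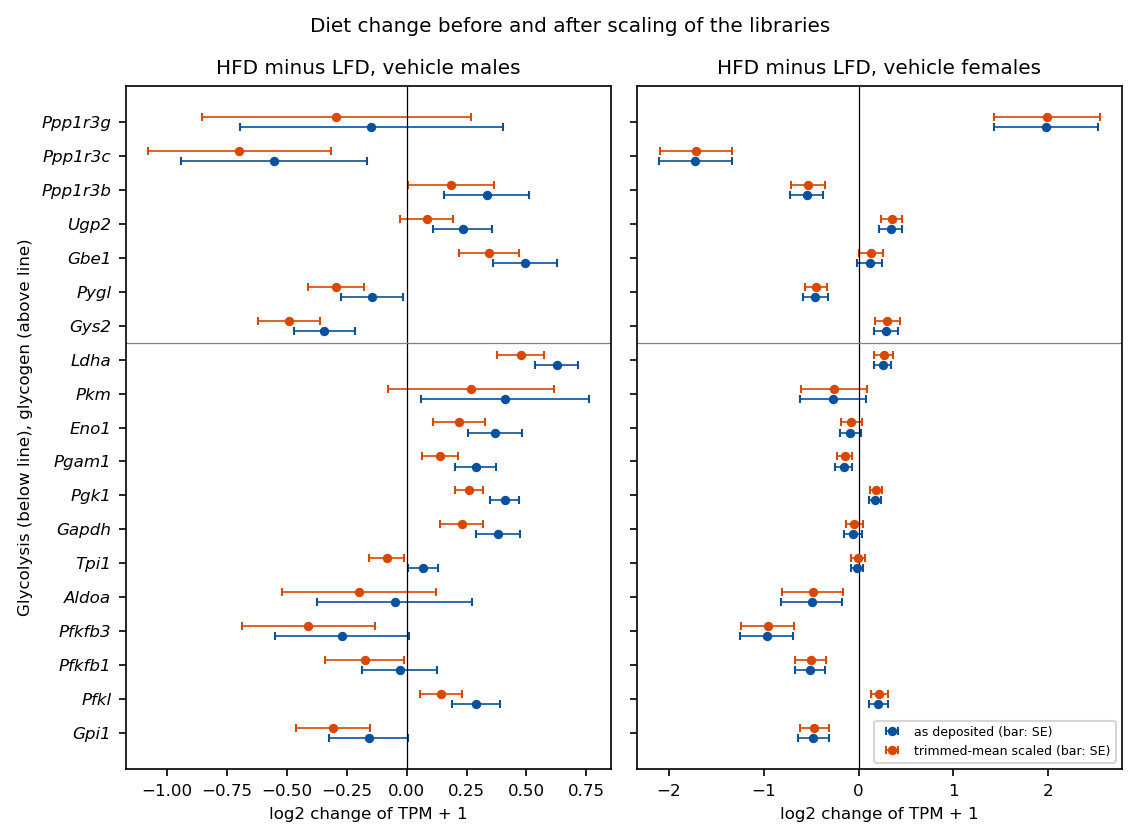
Diet change (log2 of TPM + 1, bars SE) of the glycolytic and glycogen genes in vehicle males (left) and vehicle females (right), as deposited (blue) and after trimmed-mean scaling (orange). Scaling lowers each male value by about the same amount and leaves the female values nearly in place.

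In the signalling group the insulin receptor Insr was lower on the HFD in 3 of the 4 diet comparisons. It lay at 30.9 to 37.9 TPM (median 32.7) on the LFD and 22.2 to 33.8 TPM (median 27.9) on the HFD in vehicle females, a change of -0.27 (SE 0.084, adjusted p = 0.0139), and changed by -0.26 (SE 0.084, adjusted p = 0.0238) in mixture females and -0.21 (SE 0.084, adjusted p = 0.0439) in mixture males, the last -0.40 after scaling. In vehicle males the change of -0.12 did not pass as deposited, and scaling gave -0.26, which did. Irs1 was lower in vehicle females, 2.24 to 4.64 TPM (median 3.11) against 3.72 to 6.33 TPM (median 5.24), a change of -0.50 (SE 0.17, adjusted p = 0.0236). Foxo1 was higher on the HFD in vehicle males, 17.9 to 26.7 TPM (median 21.1) against 11.1 to 17.3 TPM (median 14.6), with no overlap, a change of 0.56 (SE 0.13, adjusted p = 0.000646), or 0.42 after scaling. In mixture males the Foxo1 value was 0.081, with no call. Gcgr, the glucagon receptor, was higher in vehicle females, 239 to 287 TPM (median 264) against 173 to 228 TPM (median 216), with no overlap, a change of 0.31 (SE 0.077, adjusted p = 0.00227). Irs2 varied widely within groups and was called in no comparison as deposited, with group means between 13.8 and 32.1 TPM.

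Averaged over both sexes and treatments, 13 members were higher on the HFD and 9 lower, when 50.5% of all genes were called, 35% higher and 15.5% lower. After scaling 9 members were higher and 11 lower, when 25.3% of all genes were higher and 24.6% lower. As deposited, the 8 members with the smallest p were Pgk1 (0.31), Ldha (0.37), Gbe1 (0.40), Gapdh (0.27), Pck1 (-0.49), Pfkl (0.27), Ugp2 (0.32) and Insr (-0.21). Scaling ended the averaged calls of Gcgr, Hk2, Pgam1 and Tpi1. Members whose libraries did not overlap between the diets numbered 5 in vehicle males, 2 in vehicle females, 6 in mixture males and 2 in mixture females, when 15.6%, 11%, 15.2% and 9.47% of all genes tested did not overlap. Calls made in all 7 settings tried were Foxo1, Gbe1, Ldha, Pcx and Pgk1 in vehicle males, and Gcgr, Pck1, Pfkfb1, Pfkfb3, Ppp1r3b, Ppp1r3c, Ppp1r3g and Pygl in vehicle females. In mixture females they were Pck1, Ppp1r3g and Ugp2, and in mixture males Eno1, Gapdh, Gbe1, Gckr, Gys2, Hk2, Ldha, Pck1, Pcx, Pfkl, Pgk1 and Pkm.

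Between the sexes on the LFD with vehicle, 6 members were higher in females and 4 lower, when 23.7% of all genes were called, 17.1% higher and 6.61% lower. Of the signalling genes 4 of 5 were called, and of the glycogen genes 3 of 7. Gys2 was lower in females, 98.5 to 182 TPM (median 141) against 219 to 282 TPM (median 259.7) in males, with no overlap, a change of -0.86 (SE 0.13, adjusted p = 1.07e-06). Ppp1r3b was higher, 126 to 223 TPM (median 168) against 43.4 to 121 TPM (median 84.1), with no overlap, a change of 1.04 (SE 0.18, adjusted p = 1.47e-05). Foxo1 was likewise higher without overlap, 22.3 to 30.1 TPM (median 26.6) against 11.1 to 17.3 TPM (median 14.6), a change of 0.84 (SE 0.13, adjusted p = 2.19e-06). Those 3 were the members that did not overlap, when 9.59% of all genes did not. Irs1 (0.57), Insr (0.25), Pck1 (0.51) and Pcx (0.32) were also higher in females, and Gcgr (-0.26), Pfkfb3 (-0.85) and Ugp2 (-0.33) lower. Scaling ended the calls of Insr, Pck1 and Pcx (0.14, 0.40 and 0.21) and left 3 higher and 5 lower. After scaling 10.4% of all genes were higher and 11.4% lower. Endothelial markers were higher in the same females (4 of 5 called, sums of 115 to 192 TPM against 82.7 to 105 TPM in males), as were macrophage markers (4 of 5 called, 196 to 534 TPM against 105 to 249 TPM), and 4 of 8 hepatocyte markers were called higher and 1 lower. None of these markers was at 0 in any library. On the HFD 5 of 5 endothelial markers were called lower in vehicle females than on the LFD, at 97.6 to 115 TPM, and 6 of 8 hepatocyte markers. Their part in the changes of the members was not tested. With the 2 groups fitted alone 4 of the 10 calls remained: Foxo1, Gys2, Pfkfb3 and Ppp1r3b. Of all genes 3015 were then called, against 3752 in the full model.

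On the HFD with vehicle 0 members were higher in females and 5 lower, when 11.8% of all genes were called, 3.53% higher and 8.26% lower. Pfkfb3 had the widest difference, 2.80 to 4.48 TPM (median 3.82) in females against 7.26 to 17.6 TPM (median 13.96) in males, with no overlap, a change of -1.55 (SE 0.28, adjusted p = 9.75e-05). Pgam1 (-0.44), Gapdh (-0.42), Gbe1 (-0.57) and Pcx (-0.43) were the others, and these 5 calls were made in all 7 settings. Hk2, Pfkfb3, Pgam1, Gapdh, Eno1, Ldha and Aldoa, 7 members, did not overlap, against 5.94% of all genes. The differences in Gys2 and Ppp1r3b seen on the LFD were -0.22 (SE 0.13, adjusted p = 0.278) and 0.16 (SE 0.18, adjusted p = 0.643) on the HFD.

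Whether the diet acted differently in the sexes was tested as an interaction, the diet change in females minus that in males. With vehicle it was called positive for 2 members and negative for 10, when 18.2% of all genes were called, 3.47% positive and 14.8% negative. With the mixture it was positive for 2 and negative for 7, when 17% were called, 3.65% positive and 13.4% negative. Ppp1r3g was the most positive in both, 2.12 (SE 0.78, adjusted p = 0.0498) with vehicle and 3.03 (SE 0.78, adjusted p = 0.00506) with the mixture. Gys2 was the other positive one, 0.63 (SE 0.18, adjusted p = 0.0104) and 0.56 (SE 0.18, adjusted p = 0.0257). The negative calls shared by both treatments were Pcx, Hk2, Gapdh, Ldha, Pgam1 and Pgk1. Ppp1r3b (-0.88), Foxo1 (-0.68), Irs1 (-0.70) and Eno1 (-0.46) were negative with vehicle, and Tpi1 (-0.32) with the mixture. Over all settings, Gys2 and Pcx with vehicle and Hk2 and Ppp1r3g with the mixture were called each time. In the glycolysis group 5 of 12 were negative with each treatment and 0 after scaling, which moved the median of all genes from -0.12 to 0.007 with vehicle and from -0.15 to 0.003 with the mixture. After scaling 3 members were positive and 1 negative with vehicle, and 5 and 1 with the mixture. Of all genes, 6.53% were then positive and 6.77% negative with vehicle, and 7.29% and 5.72% with the mixture. Gys2 (0.80), Pcx (-0.59) and Ppp1r3g (2.28) kept their calls with vehicle, and Gys2 (0.75), Hk2 (-2.55) and Ppp1r3g (3.21) with the mixture.

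The mixture moved no member past the threshold (limma) in any of the 4 combinations of sex and diet. The share of all genes called was 0.0379% in LFD males, 0.0379% in LFD females, 0.0948% in HFD males and 0.0126% in HFD females. At an unadjusted p under 0.05 there were 3, 4, 8 and 0 members in the same order. The median change of the members was -0.042, -0.17, -0.047 and 0.013, beside -0.004, 0.017, 0.031 and 0.031 over all genes. In HFD males, Tpi1 ranged from 303 to 328 TPM (median 307) with vehicle and from 329 to 405 TPM (median 361) with the mixture, with no overlap, a change of 0.21 (SE 0.062, adjusted p = 0.207). It was the 1 member whose groups did not overlap there, against 0.518% of all genes. Pck1 gave -0.47 (SE 0.18, adjusted p = 0.386) in the same comparison.

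In LFD females the smallest p-values belonged to Gcgr, 218 to 309 TPM (median 255) with the mixture against 173 to 228 TPM (median 216) with vehicle, a change of 0.27 (SE 0.077, adjusted p = 0.253), and Slc2a2, a change of -0.22 (SE 0.090, adjusted p = 0.426). In LFD males they belonged to Ldha, 0.21 (SE 0.090, adjusted p = 0.910), and Gpi1, -0.36 (SE 0.16, adjusted p = 0.936), and in HFD females to Foxo1, -0.24 (SE 0.13, adjusted p = 1), and Gckr, 0.17 (SE 0.097, adjusted p = 1). Averaged over sexes and diets, 0 members were called (limma), 7 had an unadjusted p under 0.05 and 0.0948% of all genes were called. Pygl, -0.17 (SE 0.064, adjusted p = 0.295), and Slc2a2, -0.11 (SE 0.045, adjusted p = 0.314), had the smallest p. The mixture change also did not differ between the diets past the threshold for any member (0 called by limma, 7 in males and 2 in females at an unadjusted p under 0.05, and 0.00632% of all genes called in each sex). The smallest p-values were those of Tpi1, 0.26 (SE 0.088, adjusted p = 0.474), and Pck1, -0.66 (SE 0.25, adjusted p = 0.512), in males, and Pygl, 0.42 (SE 0.18, adjusted p = 1), and Gpi1, 0.47 (SE 0.23, adjusted p = 1), in females. These misses do not show that the mixture left the genes as they were.

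Of 83 other genes of the same pathways, 80 passed the filter. With the mixture 0 of the 80 were called in any comparison (limma), when between 0.00632% and 0.0948% of all genes were called. On the HFD 18 were higher and 7 lower in vehicle males, 7 and 10 in vehicle females, 28 and 8 in mixture males, and 9 and 7 in mixture females. The share of the 80 called with diet was 31.2%, 21.2%, 45% and 20% in that order. Of all genes, 31.4%, 28%, 38.6% and 19.2% were called. After scaling the male counts were 5 and 14 with vehicle and 12 and 18 with the mixture. Of all genes, 13.1% were then higher and 11.6% lower with vehicle, and 15.6% and 16.2% with the mixture. Averaged over groups, 25 were higher and 12 lower, or 14 and 16 after scaling, when 25.3% of all genes were higher and 24.6% lower. As deposited 46.2% of the 80 were called, beside 50.5% of all genes, 35% higher and 15.5% lower. The hepatic sugar genes counted 13 higher and 4 lower of 33. Mpc1, a subunit of the mitochondrial pyruvate carrier, was higher (0.64, adjusted p = 4.90e-16), as was Taldo1 of the pentose phosphate pathway (0.54), while Pfkfb2, a further fructose 2,6-bisphosphate enzyme, was lower (-0.76). The other glycogen genes counted 5 higher and 1 lower of 13, led by the phosphoglucomutases Pgm2 (0.21) and Pgm1 (0.40) and by Epm2a, the glycogen phosphatase laforin (0.51). The other insulin, glucagon and FOXO genes counted 7 higher and 7 lower of 34. Srebf1, which encodes the insulin-responsive lipogenic factor SREBP1, was higher (1.01), and the hepatocyte factor Hnf4a (-0.52) and the coactivator Ppargc1a, which drives gluconeogenic genes (-0.62), were lower.

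Between the sexes on the LFD with vehicle, 19 of the 80 were higher in females and 7 lower, and on the HFD 2 and 5, and after scaling 10 and 11, and 3 and 4. As deposited 32.5% of the 80 were called on the LFD and 8.75% on the HFD, beside 23.7% and 11.8% of all genes. After scaling 10.4% of all genes were higher and 11.4% lower on the LFD, and 4.7% and 6.13% on the HFD. The diet change differed by sex for 18 of the 80 with vehicle, 4 positive and 14 negative, and for 21 with the mixture, 6 and 15. These were 22.5% and 26.2% of the 80, when 18.2% and 17% of all genes were called. After scaling the counts were 6 and 2, and 9 and 7. Of all genes, 6.53% were then positive and 6.77% negative with vehicle, and 7.29% and 5.72% with the mixture. Srebf1 was lower in LFD vehicle females than in males (-1.06) and its diet change was larger in females by 1.04. Mpc2, the partner of Mpc1, was higher in females on both diets (0.68 and 0.54), and Stbd1, a glycogen-binding protein, was lower on both (-0.73 and -0.60).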

How the data were processed

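Liver RNA from 48 libraries in 8 groups of 6 was available as 1 deposited table of TPM values, which the authors had computed per gene. The submitters' processing notes name FastQC, Trimmomatic 0.36, STAR 2.5.2b, DESeq2 and the build GRCm38, and no source used here names the counter, annotation or strand setting. The values were taken as log2(TPM + 1), and the 15820 genes that reached 1 TPM in 6 libraries or more were fitted with limma 3.58.1 in R 4.3.3, with 1 mean per group, an intensity trend and 40 residual degrees of freedom. Changes are therefore on the log2(TPM + 1) scale, which understates the change of low genes. P-values were adjusted by Benjamini-Hochberg over all genes tested in each of 16 comparisons, with a threshold of 0.05. The code was checked on simulated data. The count test planned in case of counts was not used. Levels are lowest, median and highest of 6 libraries, and depth, hence counting error, is unknown. Trimmed-mean scaling left out 30% of log ratios and 5% of abundances at each end. Of the other pathway genes, up to 3 called genes with the smallest p per list were named. For each comparison all called members were named, except the averaged one, where the 8 with the smallest p were, or the 2 with the smallest p where none was called. The members and lists were chosen with earlier results of these data known. Tissue was checked with hepatocyte markers and other cell types with marker lists. Of the 49315 rows, 174 had an identifier but no symbol and stayed in under the identifier.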

Additional observations from a re-analysis of the deposited data

Results flagged for a closer look

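A library stood far from the other 5 of its group, by Dixon's ratio above its critical value at the 95% level, in 27 of the 264 sets of member and group (10.2%), when chance flags about 1 in 20. In the 3 muscle-rich libraries this was a high value for Hk2, Pkm and Aldoa. HFD mixture males replicate 6 was high for Hk2 (65.9 TPM, nearest 7.19), Pkm (177 TPM, nearest 37.6) and Aldoa (625 TPM, nearest 103). LFD vehicle females replicate 3 was high for Hk2 (33.1 TPM, nearest 2.52), Pkm (78.8 TPM, nearest 27.5) and Aldoa (315 TPM, nearest 80.8), and low for Gcgr (173 TPM, nearest 209.7). LFD mixture females replicate 3 was high for Hk2 (15.2 TPM, nearest 1.87), Pkm (89.6 TPM, nearest 18.1), Aldoa (218 TPM, nearest 77.04) and Pfkfb3 (17.1 TPM, nearest 6.08). That library also held 1836 TPM of adrenal cortex transcripts, and the part of either tissue in these values was not tested. The same HFD mixture male was low for Fbp1 (1185 TPM, nearest 1494), Gbe1 (78.1 TPM, nearest 118), Khk (568 TPM, nearest 852) and Eno1 (209.7 TPM, nearest 329.7).

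HFD mixture females replicate 2 was high for 5 members: Pcx (495 TPM, nearest 411), Khk (1011 TPM, nearest 872), Gapdh (829 TPM, nearest 722), Pgam1 (97.7 TPM, nearest 87.1) and Eno1 (348 TPM, nearest 290.3). LFD mixture males replicate 1 was high for Pygl (460.0 TPM, nearest 356) and Ppp1r3c (62.3 TPM, nearest 33.9), and replicate 3 of that group was low for Slc2a2 (162 TPM, nearest 181). HFD vehicle males replicate 4 was high for Pck1 (3500.3 TPM, nearest 2547) and replicate 5 was low for Slc37a4 (149 TPM, nearest 175). LFD vehicle males replicate 5 was low for Ppp1r3g (17.2 TPM, nearest 52.9), and LFD vehicle females replicate 2 was high for Pfkfb3 (13.5 TPM, nearest 8.08).

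The diet change differed between the sexes, by limma's interaction test, in 21 cases, 12 with vehicle and 9 with the mixture. Of all genes, 18.2% were called with vehicle, 3.47% positive and 14.8% negative. With the mixture 17% were called, 3.65% positive and 13.4% negative. Scaling kept 3 of the 12 calls with vehicle and 3 of the 9 with the mixture. With vehicle the diet change in females minus that in males was positive for Ppp1r3g (2.12) and Gys2 (0.63). It was negative for Hk2 (-1.84), Ppp1r3b (-0.88), Pcx (-0.75), Irs1 (-0.70), Foxo1 (-0.68), Eno1 (-0.46), Pgam1 (-0.45), Gapdh (-0.44), Ldha (-0.37) and Pgk1 (-0.24). With the mixture it was positive for Ppp1r3g (3.03) and Gys2 (0.56), and negative for Hk2 (-2.68), Ldha (-0.54), Gapdh (-0.53), Pcx (-0.45), Pgam1 (-0.40), Tpi1 (-0.32) and Pgk1 (-0.27). Without the 3 muscle-rich libraries Hk2 gave -1.25 with vehicle and -1.67 with the mixture.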

How the results depend on the processing

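The 6 alternatives changed 1 choice at a time: trimmed-mean scaling, no filter on low levels, 0.1 as pseudocount, only the groups compared, a replicate block, and leaving out the 3 muscle-rich libraries. A count test with DESeq2 was not run, because the table holds TPM. Counts of called members stayed within 1.5 times the reported count except in 3 comparisons. Between the sexes on the LFD, 10 calls became 4 with only the groups compared, when calls among all genes went from 3752 to 3015 of 15820. On the HFD, 5 became 10 with only the groups compared and 8 without the 3 libraries. Calls among all genes there went from 1865 to 1710 of 15820 and to 2076 of 15677. For the difference of the diet change by sex with vehicle, 12 became 4 with scaling and 6 with no filter. Calls among all genes for that difference went from 2887 of 15820 to 2100 of 15800 and to 2191 of 35205. The 121 named results were the calls and, where none was called, the 2 members with the smallest p. None reversed in any alternative. The number of calls that no longer passed was 29 with scaling, 24 with no filter, 18 with only the groups compared, 6 without the 3 libraries, and 2 each with the other pseudocount and the replicate block. The cause of these losses was not tested, except that fewer libraries enter 2 of the fits. The comparisons of the mixture gave 0 called members in each alternative, when at most 47 of all genes were called. Replicate numbers did not pair the libraries: in no comparison did all 6 same-numbered pairs correlate above 0.1, and at most 4 did. With the replicate block the count was 16 against 15 in vehicle females and 15 against 16 in mixture males, and unchanged at 11 in vehicle males, 7 in mixture females and 0 with the mixture. Depth is unknown, so the counting error of low genes such as Hk2 and Irs1 could not be estimated here. Diet and cohort cannot be told apart.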

Other observations

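Some other pathway genes differed widely, and those named here were chosen after their values were seen. G6pdx, the first enzyme of the pentose phosphate pathway, lay at 42.8 to 94.2 TPM (median 71.9) in LFD vehicle females and 4.03 to 6.81 TPM (median 5.56) in HFD vehicle females, a change of -3.42 (SE 0.40, adjusted p = 9.22e-09) by limma. In vehicle males it lay at 4.25 to 83.2 TPM (median 22.8) and 5.30 to 7.85 TPM (median 6.52), a change of -1.50 (SE 0.40, adjusted p = 0.00302). Pklr, the liver pyruvate kinase, changed on the HFD by -0.92 in vehicle males and -0.81 in vehicle females, and Pkm was called lower in neither. Pdk4, a kinase that shuts pyruvate dehydrogenase and so spares glucose, was higher in vehicle males with a change of 1.49 (SE 0.55, adjusted p = 0.0343). Sik1, a kinase induced by cyclic AMP that restrains gluconeogenic transcription, was higher in vehicle females with a change of 1.43 (SE 0.38, adjusted p = 0.00325), and Socs3, an inhibitor of cytokine and insulin signalling, was lower in vehicle males with a change of -1.07 (SE 0.36, adjusted p = 0.0185).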
